A study of Mus musculus with 6 samples.

Results

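The 10 genes described here, *Fkbp5*, *Tsc22d3*, *Per1*, *Zbtb16*, *Klf9*, *Dusp1*, *Sgk1*, *Mt1*, *Mt2* and *Errfi1*, are widely used readouts of glucocorticoid hormone action. They were chosen by name, with earlier results of these data known. The deposited tables list 8 of the 10 under their own names, among 48733 named genes. *Mt1* lies inside the feature named *Mt2*, and *Klf9* lies inside a feature named *2410080I02Rik*, so neither has a value of its own. RNA was sequenced from 3 libraries labelled bone and 3 labelled osteoblasts, all from CC016/GeniUnc mice, an inbred Collaborative Cross strain, and no genetic change or age is named for either group. The bone samples were femoral bone from which marrow had been spun out, and they were not cultured. The osteoblasts were grown from the adherent cells of that marrow, for which no sort is named, and differentiation began 7 days after marrow isolation. They were then kept for 8 days in medium with 10 nM dexamethasone, 50 µg/ml ascorbic acid and 10 mM beta-glycerophosphate. Dexamethasone is a synthetic glucocorticoid that helps stromal cells become osteoblasts. No culture without dexamethasone was analysed here, so the hormone, the culture and the cell source cannot be told apart in a comparison of the labels. The paper's methods give 3 mice, and the labels do not say which libraries share a mouse.

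Glucocorticoids cross the cell membrane and bind the glucocorticoid receptor, which is held ready in the cytoplasm by Hsp90 and its cochaperones. The bound receptor moves to the nucleus, where it occupies palindromic DNA elements and raises the transcription of target genes, while it lowers that of many inflammatory genes. In bone, brief exposure supports the maturation of osteoblasts in culture, and long exposure in the body causes bone loss. Among the 10 genes, *Fkbp5* encodes a cochaperone that lowers the receptor's affinity for hormone, *Tsc22d3* (also called Gilz) a leucine zipper protein that restrains inflammatory transcription factors, and *Dusp1* a phosphatase that inactivates MAP kinases. *Errfi1* (also called Mig6) encodes an inhibitor of the epidermal growth factor receptor, *Sgk1* a kinase of ion transport and cell survival, and *Per1* a repressor of the circadian clock. *Zbtb16* and *Klf9* encode zinc finger transcription factors, and *Mt1* and *Mt2* small cysteine-rich proteins that bind zinc.

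The promoters of these genes are shown because the bound receptor acts through DNA elements, and they were read from RefSeq on GRCm38.p6, a patch release of GRCm38, the build of the tables. RefSeq gave 18 windows of 300 bases, from 250 bases before to 50 bases after a start site, for 9 of the 10 genes. *Zbtb16* had no entry. Both strands were searched for the glucocorticoid element, AGAACA and TGTTCT with any 3 bases between them, and for its looser core, GNACA and TGTNC with any 3 bases between them (N is any base), which the first contains. Metal response elements (TGCGCNC or TGCACNC), the E-box CACGTG and the cAMP response element TGACGTCA were searched in the same way. The full glucocorticoid element was found in 1 window, a start site of *Sgk1* at chr10:21993640-21993939 on the plus strand, where it ran from base -189 to base -175 relative to the start site. Of 32817 mouse promoter windows, 3 held it (0.00914%). The core was found in that window and in the *Mt1* window at chr8:94178839-94179138 on the plus strand (bases -94 to -82), against 0.475% of all windows. The *Mt1* window also held 3 matches to the metal response element and the *Mt2* window, chr8:94172368-94172667 on the plus strand, held 4, and 25.7% of all windows held at least 1. The *Fkbp5* window, chr17:28486100-28486399 on the minus strand, held an E-box, as did 7.15% of all windows. The *Dusp1* window, chr17:26508423-26508722 on the minus strand, held a cAMP response element (1.79% of all windows), an E-box and a metal response match. Among the 9 genes, 2 had a cAMP response match (*Dusp1* and *Errfi1*), 4 an E-box and 5 a metal response match. The shares over all windows count windows and not genes. Of the 18 windows, 2 held a cAMP response match, 4 an E-box and 5 a metal response match. The 5 windows whose positions are given above follow, 5′ to 3′ on the strand of the gene, with every match to a searched motif in capitals. *Fkbp5* and *Dusp1* are shown because the values below contrast them.
Sgk1: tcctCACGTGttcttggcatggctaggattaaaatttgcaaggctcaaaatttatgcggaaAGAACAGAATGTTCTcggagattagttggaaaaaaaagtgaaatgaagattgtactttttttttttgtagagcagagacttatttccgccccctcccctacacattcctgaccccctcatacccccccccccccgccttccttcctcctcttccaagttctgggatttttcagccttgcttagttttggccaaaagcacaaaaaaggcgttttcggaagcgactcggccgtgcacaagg
Mt1: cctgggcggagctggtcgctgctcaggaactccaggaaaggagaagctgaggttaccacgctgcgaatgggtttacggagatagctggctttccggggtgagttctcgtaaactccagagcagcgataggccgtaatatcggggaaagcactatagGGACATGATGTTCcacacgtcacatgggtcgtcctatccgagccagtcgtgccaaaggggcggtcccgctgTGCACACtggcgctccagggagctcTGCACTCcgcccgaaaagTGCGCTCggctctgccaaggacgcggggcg
Mt2: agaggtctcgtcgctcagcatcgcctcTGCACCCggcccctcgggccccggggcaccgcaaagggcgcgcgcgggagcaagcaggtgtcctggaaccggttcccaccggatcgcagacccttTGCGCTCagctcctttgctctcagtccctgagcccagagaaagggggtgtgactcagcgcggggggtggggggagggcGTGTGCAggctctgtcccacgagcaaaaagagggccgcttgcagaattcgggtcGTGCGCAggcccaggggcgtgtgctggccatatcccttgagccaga
Fkbp5: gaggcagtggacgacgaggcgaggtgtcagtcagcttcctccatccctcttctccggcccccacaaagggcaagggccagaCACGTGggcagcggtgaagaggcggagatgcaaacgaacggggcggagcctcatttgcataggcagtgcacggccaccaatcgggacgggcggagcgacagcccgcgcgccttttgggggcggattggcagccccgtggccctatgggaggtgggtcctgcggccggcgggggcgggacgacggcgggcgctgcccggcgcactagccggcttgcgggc
Dusp1: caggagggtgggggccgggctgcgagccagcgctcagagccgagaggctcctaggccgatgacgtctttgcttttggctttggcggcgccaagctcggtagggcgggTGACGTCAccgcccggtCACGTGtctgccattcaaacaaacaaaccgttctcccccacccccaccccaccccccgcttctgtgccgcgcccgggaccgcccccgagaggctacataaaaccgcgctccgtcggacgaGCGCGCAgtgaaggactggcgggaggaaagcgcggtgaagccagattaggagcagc
A match is a description of letters in a short window. The tables hold 1 value for all start sites of *Sgk1*, for which RefSeq gave 6 windows.

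**Figure D1:**
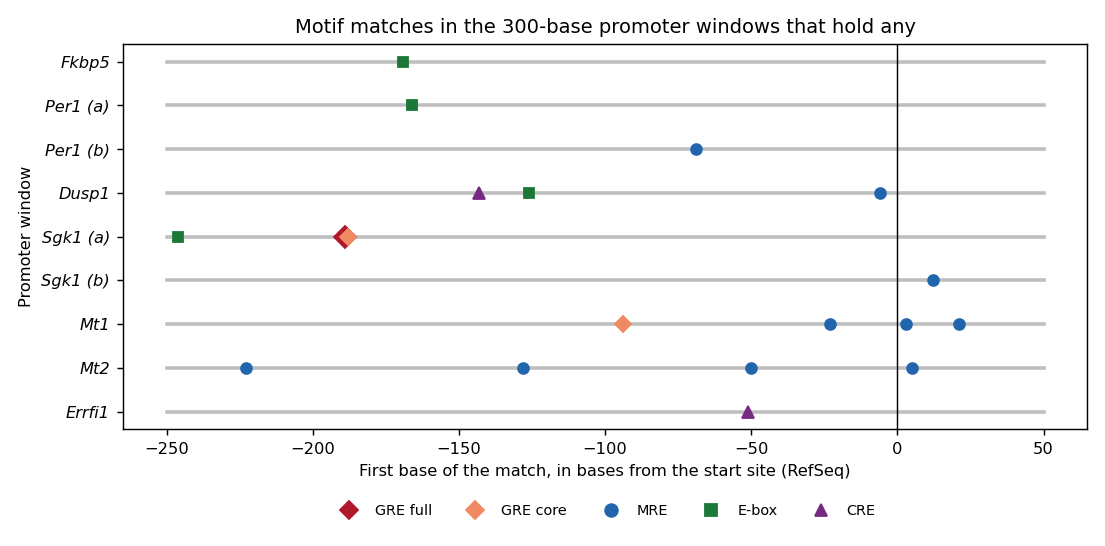
Position of motif matches in the 9 promoter windows of the glucocorticoid-responsive genes that hold any. The x axis gives the first base of a match in bases from the start site, each grey line is 1 window of 300 bases, letters in brackets tell apart windows of 1 gene, and markers give the motif (GRE, glucocorticoid element; MRE, metal response element; CRE, cAMP response element); the full glucocorticoid element lies at base -189 of an *Sgk1* window and a core match at base -94 of *Mt1*.

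The libraries did not fall apart by label. The feature named *Hbb-bt*, which spans the beta-globin genes *Hbb-bt* and *Hbb-bs*, was above 1000 FPKM in 3 libraries, at 34268 to 48650 FPKM, and at 3.43 to 7.05 FPKM in the other 3. The first are called globin-high here and are those labelled bone replicate 3 and osteoblasts replicates 2 and 3. The globin-low libraries are those labelled bone replicate 1, bone replicate 2 and osteoblasts replicate 1. The 6 neutrophil markers summed to 13395 to 16099 FPKM in the globin-high libraries, against 0.32 to 5.45 FPKM in the globin-low ones, where the neutrophil gene *Elane* and the muscle gene *Tnnt3* were listed at 0. The sums of the 4 listed muscle markers were 235 to 983 FPKM against 1.60 to 3.82, and those of the 6 endothelial markers 75.1 to 90.0 FPKM against 2.88 to 11.3. Macrophage markers went the other way, with sums over 6 genes of 403 to 533 FPKM against 1397 to 2762. The 3 listed stromal progenitor markers summed to 27.6 to 28.7 FPKM against 30.5 to 81.9. Of these, *Pdgfrb* was lower in the globin-high libraries and 2 overlapped. The sums of the 5 listed adipocyte markers overlapped, at 260 to 309 FPKM against 51.6 to 350. The 6 osteoblast markers summed to between 3151 and 5043 FPKM, of which *Col1a1* gave 1499 to 3332 FPKM, and they did not move together. *Bglap2* was higher in the globin-high libraries (1641 to 1959 FPKM against 264 to 513), *Ibsp* (43.1 to 91.3 against 986 to 1278) and *Alpl* (66.0 to 94.1 against 95.4 to 205) were lower, and *Sp7* and *Runx2*, at 5.78 to 38.7 FPKM, overlapped. The 5 listed osteocyte markers summed to 48.2 to 53.5 FPKM in the globin-high libraries and 57.1 to 135 FPKM in the globin-low ones, with *Dmp1* lower in the globin-high libraries (22.5 to 24.2 FPKM against 50.04 to 127), *Phex* overlapping, and *Sost* higher (15.8 to 22.7 FPKM against 0.0661 to 0.198). Blood genes at this level go against the label of a stromal culture. *Sost*, at 0.176 and 0.0661 FPKM in bone replicates 1 and 2 against 18.8 in bone replicate 3, goes against the label bone in replicates 1 and 2. *Dmp1* was at 104 and 50.04 FPKM against 24.2 in the same libraries. Its highest value, 127 FPKM, was in osteoblasts replicate 1, so *Dmp1* does not tell the labels apart. The libraries are named by their labels throughout. The implied depth was 2.035 to 3.388 Gb of aligned bases, at which 3 pairs on a transcript of 1 kb give 0.133 to 0.221 FPKM. The listed members ranged from 3.22 to 106 FPKM, at least 15.7 times that floor, which covers counting error only. Unnamed features took 71.5% of the FPKM in bone replicate 2 and 65.0% in osteoblasts replicate 1, against 27.4 to 30.7% elsewhere, and the denominator of the FPKM of a named gene counts them too.

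*Fkbp5*, the feedback regulator of the receptor, had the widest range of the 8 listed members in FPKM, while *Errfi1* had it after scaling to the 75th percentile (7.33-fold against 7.15-fold) and by rank. Its feature lies on the minus strand of Chr. 17, from 28399095 to 28517524. In the order of replicates 1, 2 and 3, which holds for every gene here, *Fkbp5* measured 76.5, 38.8 and 7.72 FPKM in the bone replicates and 49.7, 9.22 and 9.59 FPKM in the osteoblasts replicates. The 3 low values were those of the globin-high libraries, under both labels, and the labels overlapped. Its highest value was 9.91 times its lowest. With 1 added to each value the range was 8.89-fold, wider than for 93.3% of the 12112 genes tested, whose median range was 2.73-fold. Ranked within a library among genes at 1 FPKM or more, *Fkbp5* stood above 94.1 to 94.7% of them in the globin-low libraries and above 58.2 to 62.8% in the globin-high ones. In bulk RNA, fewer cells of a type and less RNA per cell cannot be told apart.

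*Errfi1*, which dampens growth factor signals and lies on Chr. 4 (plus strand, 150853919 to 150868892), followed the same order. It measured 55.1, 26.4 and 6.27 FPKM in the bone replicates and 30.7, 6.47 and 8.02 FPKM in the osteoblasts replicates. Its range, 8.79-fold, was nearly that of *Fkbp5*, and its rank fell from between 89.6 and 92.2% to between 50.5 and 57.3% in the globin-high libraries. *Tsc22d3*, the anti-inflammatory mediator on the minus strand of Chr. X (140539528 to 140600659), had the highest level of any member in 3 libraries. It measured 106, 89.4 and 23.3 FPKM in the bone replicates and 82.2, 25.9 and 39.4 FPKM in the osteoblasts replicates. Its values again parted by *Hbb-bt* and not by label, and its range was 4.55-fold. *Sgk1*, on Chr. 10 (plus strand, 21882184 to 21999903), measured 28.2, 20.03 and 13.7 FPKM in the bone replicates and 21.6, 15.7 and 16.4 FPKM in the osteoblasts replicates. The same 3 libraries were lowest, and in FPKM the lowest of the upper 3 values was 1.22 times the highest of the lower 3, against 4.04 times for *Fkbp5*, 3.29 times for *Errfi1* and 2.08 times for *Tsc22d3*. After scaling to the sum over named genes these steps were 2.37 times for *Sgk1*, 9.35 for *Fkbp5*, 7.62 for *Errfi1* and 3.72 for *Tsc22d3*.

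The merged feature that covers *Klf9* also covers *2410080I02Rik*, from 23134900 to 23168124 on Chr. 19, and its value is that of both genes. It measured 21.8, 10.1 and 2.51 FPKM in the bone replicates and 12.0, 2.17 and 3.93 FPKM in the osteoblasts replicates. This locus had the same 3 low libraries as *Fkbp5* and a range of 10.1-fold. With 1 added to each value its range was 7.21-fold, narrower than that of *Fkbp5* and wider than for 90.7% of the genes tested. Its difference in mean log2(FPKM + 1), osteoblasts minus bone, was -0.71, with an exact two-sided permutation p of 0.6.

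The other listed members did not part the libraries in this way. *Dusp1*, the MAP kinase phosphatase on the minus strand of Chr. 17 (26505590 to 26508519), measured 12.5, 6.94 and 11.4 FPKM in the bone replicates and 8.39, 13.7 and 12.1 FPKM in the osteoblasts replicates. Its lowest values were in bone replicate 2 and osteoblasts replicate 1, the libraries in which unnamed features took most of the FPKM. The feature named *Mt2*, which runs from 94172664 to 94183920 on Chr. 8 and covers both metallothionein genes, measured 48.5, 33.5 and 43.6 FPKM in the bone replicates and 50.2, 43.6 and 44.1 FPKM in the osteoblasts replicates. Its range was 1.497-fold, the smallest of the 8 in FPKM, but 2.58-fold after scaling to the sum over named genes, where *Dusp1* had the smallest range (1.65-fold). In FPKM with 1 added, the *Mt2* range was wider than that of 1.09% of genes. It stood above 91.0 to 94.4% of expressed genes in every library. *Per1*, the clock gene on the plus strand of Chr. 11 (69095217 to 69110710), measured 9.60, 4.81 and 4.47 FPKM in the bone replicates and 11.4, 4.59 and 6.18 FPKM in the osteoblasts replicates. *Zbtb16*, on the minus strand of Chr. 9 from 48654297 to 48836222, measured 9.76, 3.22 and 4.90 FPKM in the bone replicates and 5.86, 4.29 and 5.72 FPKM in the osteoblasts replicates. *Per1* and *Zbtb16* were lowest in different libraries, and each had its values above 9 FPKM in globin-low libraries.

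**Figure D2:**
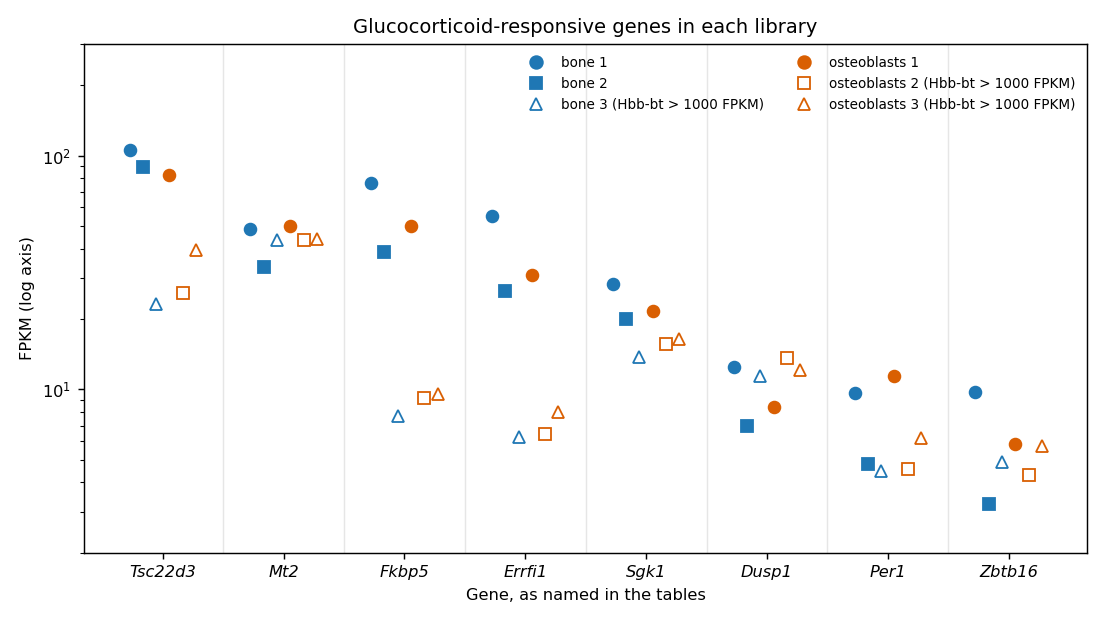
FPKM of the 8 listed glucocorticoid-responsive genes in each of the 6 libraries, on a log axis. Colour gives the deposited label, shape the replicate number, and open markers the 3 libraries with *Hbb-bt* above 1000 FPKM; for *Fkbp5* the open markers lie between 7.72 and 9.59 FPKM and the filled ones between 38.8 and 76.5, while for *Mt2* all 6 lie between 33.5 and 50.2.

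In all, 4 of the 8 listed members had their 3 lowest values in the globin-high libraries and 0 had their 3 highest values there. Over the 12112 genes tested the shares were 16.9% and 38.4%. Because the members were chosen with earlier results of these data known, the shares are a description and not a test. These 4, *Fkbp5*, *Tsc22d3*, *Sgk1* and *Errfi1*, were lowest in the globin-high libraries on each scale tried, in FPKM, in TPM, after scaling to the sum over named genes or to the 75th percentile, and in ranks. The share of all genes lowest there was 15.7% in TPM, 20.4% after scaling to the 75th percentile and 20.8% in ranks. The other 4 members depended on the scale. After scaling to the sum over named genes all 8 members were lowest in those libraries, but so were 48.6% of all genes. *Dusp1* was highest in them by rank and by the 75th percentile, but so were 45.8% and 47% of all genes. These libraries were set apart by a measured gene and not by the design, so no test was run between them. The macrophage, neutrophil, muscle and endothelial sums above moved with the same libraries, and their part in the values of the members was not tested.

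Ratios between members within a library do not depend on its scaling, and the pairs were chosen after the values were seen. The *Fkbp5* to *Dusp1* ratio was 6.12, 5.59 and 0.676 in the bone replicates and 5.92, 0.675 and 0.792 in the osteoblasts replicates. The globin-low libraries lay close together, and so did the globin-high ones, whatever their label. The ratio of *Errfi1* to *Dusp1* was 4.41, 3.803 and 0.549 in the bone replicates and 3.66, 0.474 and 0.662 in the osteoblasts replicates. *Tsc22d3* to *Dusp1* ranged from 8.46 to 12.9 in the globin-low libraries and from 1.90 to 3.26 in the others, and *Fkbp5* to *Zbtb16* from 7.84 to 12.0 and from 1.57 to 2.15. The members of these pairs therefore differed from library to library in their proportions as well as in their levels. Each pair set a member lowest in the globin-high libraries in FPKM over a member that was not, so the choice of pairs favours this split.

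**Figure D3:**
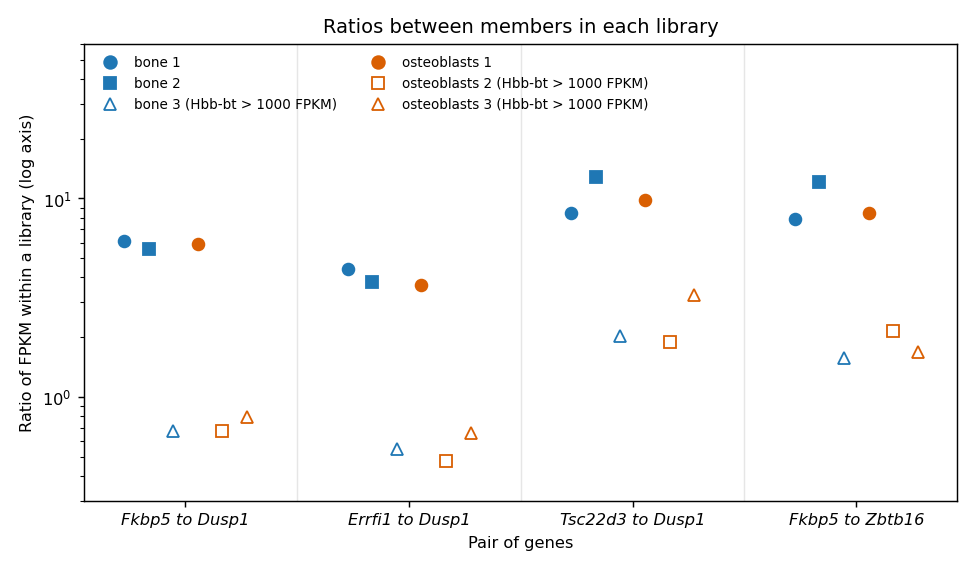
Ratio of FPKM between pairs of members within each library, on a log axis, with colours, shapes and open markers as for the plot of FPKM by library. The ratio of *Fkbp5* to *Dusp1* lies between 5.59 and 6.12 in the 3 globin-low libraries and between 0.675 and 0.792 in the other 3.

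The comparison the design implies, osteoblasts against bone, asks how the cells differentiated under dexamethasone differ from the tissue. The marker values above leave it unsettled whether some labels were exchanged between libraries, so each difference, osteoblasts minus bone, is that of the labels as deposited. limma called 0 of the 8 listed members, and 0 of the 12112 genes tested (0%), at an adjusted p under 0.05. Mean FPKM was 41.0 ± 34.5 in bone and 22.8 ± 23.3 in osteoblasts for *Fkbp5*, and 41.9 ± 7.67 and 45.9 ± 3.65 for *Mt2* (SD, n = 3 per label). On the scale of log2(FPKM + 1), the difference of the means, osteoblasts minus bone, was -0.80 for *Errfi1* (standard error 0.83), -0.76 for *Fkbp5* (standard error 0.91) and -0.46 for *Tsc22d3* (standard error 0.71). It was -0.15 for *Sgk1*, -0.045 for *Zbtb16* and 0.19 for *Per1*, with standard errors between 0.46 and 0.49. For *Mt2* it was 0.14 and for *Dusp1* 0.15, and both turned negative, to -0.043 and -0.029, after scaling to the sum over named genes. The limma adjusted p was 0.999 for each member, with Benjamini-Hochberg adjustment over the 12112 genes. Exact two-sided permutation tests gave p = 0.5 for *Mt2*, p = 0.6 for *Per1* and *Dusp1*, p = 0.7 for *Fkbp5*, *Tsc22d3*, *Sgk1* and *Errfi1*, and p = 1 for *Zbtb16*, and 3 libraries against 3 cannot give less than 0.1. The unadjusted limma p was under 0.05 for 17 of all genes (0.14%) and for 0 members. With the replicate number in the model as a block the share of genes called was 0.405%, again with 0 members. The values of the labels overlapped for all 8 members, while 0.479% of all genes were higher and 0.438% lower under osteoblasts in every library. The labels say nothing of separate animals within a group, so these p-values measure the spread between libraries.

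The intervals were wide, and they do not show that the labels are alike. The 95% interval of the limma difference ran from -2.81 to 1.28 for *Fkbp5*, from -2.67 to 1.08 for *Errfi1* and from -2.07 to 1.15 for *Tsc22d3*. As folds on the FPKM + 1 scale, the interval for *Fkbp5* reached from 0.142 to 2.44 times the bone level. For *Mt2* it ran from -0.89 to 1.18. Within the label bone the SD of log2(FPKM + 1) was 1.62 for *Fkbp5*, 1.496 for *Errfi1* and 1.17 for *Tsc22d3* (n = 3), and under osteoblasts it was 1.32, 1.13 and 0.82 (n = 3). These SDs exceeded the difference between the labels for each of the 3 genes. The median difference over all genes was 0.12 and that over the 8 members -0.10. Relative to the median of all genes, *Fkbp5* was at -0.89, *Errfi1* at -0.92 and *Per1* at 0.067, and after scaling to the sum over named genes, where the median of all genes was -0.032, they were at -0.91, -0.94 and 0.070.

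**Figure D4:**
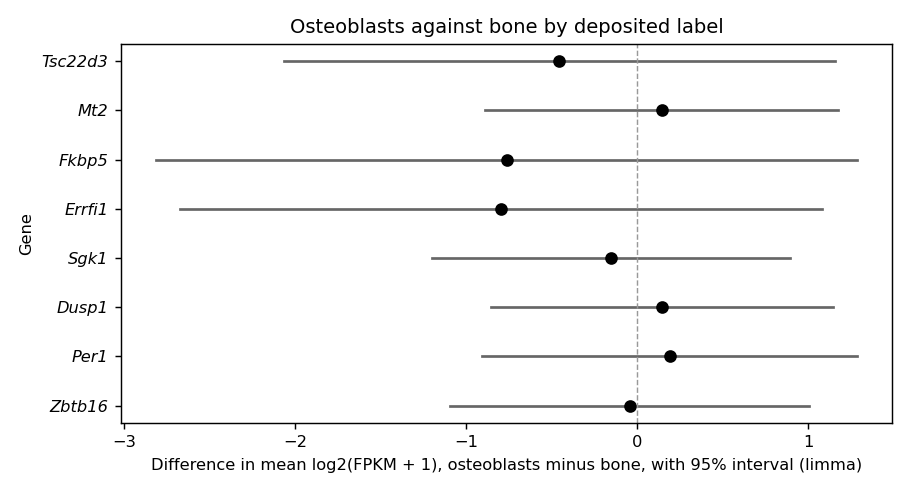
Difference in mean log2(FPKM + 1) between osteoblasts and bone for each listed member, from limma over 12112 genes with 3 libraries per label. Points are estimates and lines are 95% intervals; the estimates lie between -0.80 and 0.19 and all 8 intervals include 0.

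The receptor and the proteins that control its access to hormone were described next, from a list of 14 genes of which 9 were tested. limma called 0 of the 9, and their median difference was -0.020 against 0.12 for all genes. *Nr3c1*, the glucocorticoid receptor, measured 16.3, 8.18 and 8.503 FPKM in the bone replicates and 8.23, 6.03 and 11.2 FPKM in the osteoblasts replicates. It did not part the libraries as *Fkbp5* did, since 2 of the globin-low libraries, at 8.18 and 8.23 FPKM, lay within the range of the globin-high ones. *Hsd11b1*, the enzyme that regenerates active glucocorticoid inside cells, measured 3.83, 1.04 and 13.7 FPKM in the bone replicates and 3.33, 14.3 and 15.5 FPKM in the osteoblasts replicates. It was highest where *Fkbp5* was lowest. *Hsd11b2*, which inactivates the natural hormone, stayed between 0.152 and 1.04 FPKM, and the mineralocorticoid receptor *Nr3c2* between 0.186 and 1.60 FPKM, both under the filter for testing. Among the chaperones, *Hsp90ab1* measured 150 to 347 FPKM. *Fkbp4*, the cochaperone that acts opposite to *Fkbp5* on the receptor, measured 22.2, 10.8 and 37.3 FPKM in the bone replicates and 15.4, 40.6 and 36.1 FPKM in the osteoblasts replicates, so that it exceeded *Fkbp5* in the 3 globin-high libraries and was below it in the 3 globin-low ones. *Ncor1*, a corepressor whose feature also reaches *Ttc19* and *Pigl*, measured 14.8 to 29.3 FPKM. Of the 9, 3 had their lowest values and 2 their highest in the globin-high libraries, against 16.9% and 38.4% of all genes.

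Genes listed as repressed by glucocorticoids numbered 10, of which 6 were tested and 0 were called, with a median difference of -0.75 against 0.12 for all genes. Whether each is repressed in osteoblasts was not tested. *Mmp13*, a collagenase of bone, measured 168, 106 and 36.7 FPKM in the bone replicates and 98.7, 37.4 and 35.8 FPKM in the osteoblasts replicates. *Tnfrsf11b*, which encodes osteoprotegerin, measured 19.6, 9.90 and 2.10 FPKM in the bone replicates and 11.3, 2.75 and 2.19 FPKM in the osteoblasts replicates. *Ccl2*, a chemokine that draws monocytes, measured 11.3, 7.70 and 0.413 FPKM in the bone replicates and 11.4, 0.120 and 0.209 FPKM in the osteoblasts replicates. These 3 genes were low in the libraries in which *Fkbp5* was low, and 4 of the 6 tested had their lowest values there and 2 their highest, where 16.9% and 38.4% of all genes did. Of 22 further genes known to be induced by glucocorticoids, 13 were tested and 0 were called, with a median of -0.016. *Anxa1*, an anti-inflammatory annexin, measured 75.5 to 264 FPKM, and *Nfkbia*, the inhibitor of NF-kappaB, 17.2 to 37.5 FPKM. *Lcn2*, also a granule protein of neutrophils, measured 673 to 868 FPKM in the globin-high libraries, and its highest value in the globin-low ones was 0.742 FPKM. Under the replicate block *Lcn2*, 1 of the 13, was called higher in osteoblasts by limma (adjusted p = 0.0017). The block pairs globin-low bone replicate 2, with *Lcn2* at 0 FPKM, with globin-high osteoblasts replicate 2, at 856 FPKM. The labels do not give that pairing. The same block called all 6 neutrophil markers and all 3 tested erythroid markers. Of the 13 induced genes tested, 2 were lowest and 5 highest in the globin-high libraries, shares near the 16.9% and 38.4% of all genes.

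**Figure D5:**
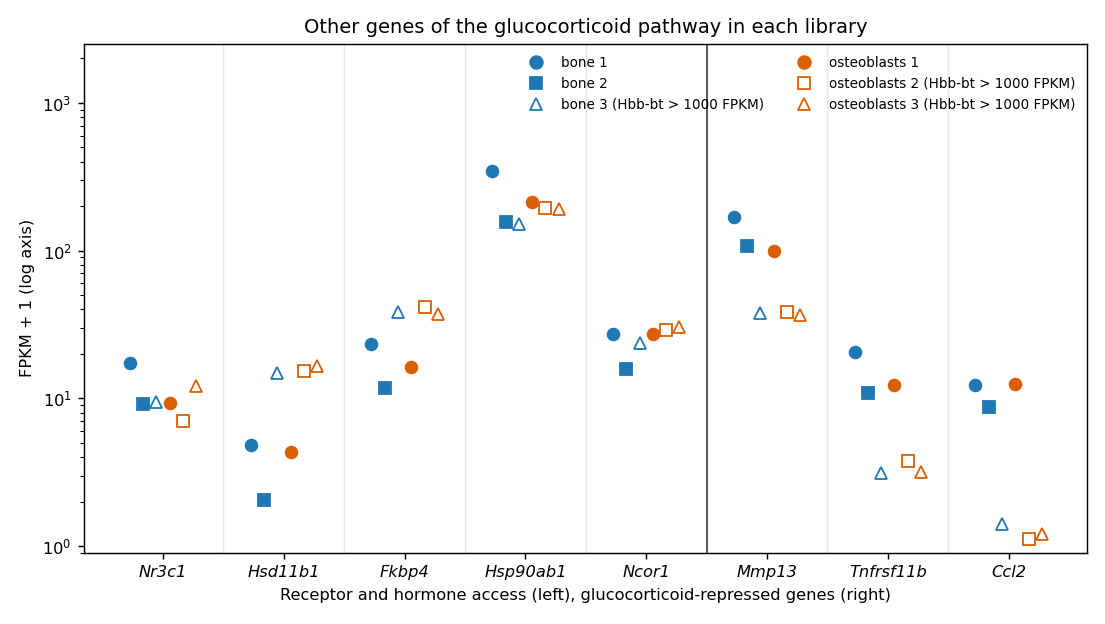
FPKM + 1 of other genes of the glucocorticoid pathway in each library, on a log axis, with receptor and hormone access genes on the left and repressed genes on the right; colours, shapes and open markers are as for the plot of FPKM by library. *Hsd11b1* reaches 13.7 to 15.5 FPKM in the open markers and at most 3.83 FPKM in the filled ones, and *Ccl2* shows the opposite order.

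The members also belong to other pathways and families, and limma called 0 genes of these lists. For metallothioneins, 6 genes of metal handling were listed, 5 were tested and 0 were called (median difference 0.0041). *Slc39a14*, a zinc importer, measured 22.7, 18.3 and 10.3 FPKM in the bone replicates and 21.7, 6.42 and 7.66 FPKM in the osteoblasts replicates, *Mtf1*, the metal-sensing factor, 2.75 to 6.40 FPKM for a feature that reaches a neighbouring gene, and *Slc39a10* 1.19 to 7.18 FPKM. For *Per1*, 9 of 12 clock genes were tested and 0 were called (median -0.070). *Arntl*, the activator of *Per1*, measured 11.02, 5.03 and 4.88 FPKM in the bone replicates and 5.21, 3.62 and 4.92 FPKM in the osteoblasts replicates, *Tef* 8.97 to 17.3 FPKM and *Nr1d2* 2.87 to 10.8 FPKM. For *Dusp1*, which is also an immediate early gene, 8 of 12 such genes were tested and 0 were called (median -0.21). *Jun* measured 20.8, 11.2 and 6.26 FPKM in the bone replicates and 18.1, 4.32 and 5.02 FPKM in the osteoblasts replicates, while *Zfp36* was 4.78 to 12.8 FPKM and highest in the libraries in which *Jun* was lowest. *Junb*, summed over 2 features of which 1 reaches into *Prdx2*, measured 15.6 to 40.3 FPKM. Of 16 paralogs and partners of the members, 14 were tested and 0 were called (median 0.066). *Tsc22d1* measured 14.8 to 66.5 FPKM and *Klf13* 19.3 to 38.0 FPKM, for a feature that touches a neighbouring gene. *Klf6* measured 61.4, 26.7 and 16.7 FPKM in the bone replicates and 32.6, 13.8 and 20.7 FPKM in the osteoblasts replicates. Over the 7 lists, 64 of 92 genes were tested, and 21 of them had their lowest and 18 their highest values in the globin-high libraries, against 16.9% and 38.4% of all genes.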

How the data were processed

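Per the paper's methods, read pairs of 75 bases were mapped by the authors with HISAT2 to an index of GRCm38 that holds known SNPs, and StringTie computed the expression values. The submitters' processing notes give HISAT2 2.0.5, SAMtools 1.7 and StringTie 1.3.3. The library kit does not mark strand. The authors deposited, for each feature, its coverage (the mean read depth over its bases), its FPKM (fragments per kilobase of transcript, scaled to the aligned reads) and its TPM (FPKM rescaled within the library). Read counts were not used here. Of 93285 features shared by the 6 tables, 48815 carried a name in each, and rows of one name were summed to 48733 genes. The ratio of coverage to FPKM is fixed by the aligned bases of a library, and its mode over features covered more than 1 time gave the depth.

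Genes whose mean FPKM reached 1, 12112 in all, were tested by limma 3.58.1 (R 4.3.3) on log2(FPKM + 1), with a trend, at a Benjamini-Hochberg adjusted p under 0.05. limma was also run on simulated data. The simulated libraries were independent and lacked the globin split, so that run does not show how limma performs on these libraries. The fit was on all 6 libraries, with no covariate. Single genes were compared with exact permutation tests in scipy 1.17.1. Groups and replicate numbers come from the labels, and no library was moved. The members and lists were chosen with earlier results of these data known. Named are the members, *Hbb-bt*, the 3 genes of each list with the highest mean FPKM, 4 receptor and hormone access genes, and cell type markers. The alternatives were other pseudocounts, filters and scalings, TPM, no trend, the replicate block and leaving out libraries. Lists are described by counts and medians, with no set test. Python 3.11.15, pandas 2.3.3, numpy 2.4.6 and matplotlib 3.10.9 were also used.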

Additional observations from a re-analysis of the deposited data

How the results depend on the processing

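Under the 11 alternatives that change the processing or drop a pair of libraries and the 6 that leave out 1 library, limma called 0 of the 8 listed members, and the lowest adjusted p was 0.312. The sign of a difference turned in 14 of 136 values. Scaling to the sum over named genes gave -0.029 for *Dusp1* and -0.043 for *Mt2*. Without osteoblasts replicates 2 and 3 the differences were 0.76 for *Fkbp5*, 0.51 for *Errfi1*, 0.43 for *Tsc22d3*, 0.12 for *Sgk1*, 0.089 for *Zbtb16* and -0.23 for *Dusp1*. That choice leaves 1 globin-low library against 3 that include globin-high bone replicate 3, so it builds in the sign of genes low in the globin-high libraries and says nothing of stability. The sign also turned without bone replicate 1 for *Sgk1* (0.091) and *Zbtb16* (0.32), without bone replicate 2 for *Dusp1* (-0.090) and *Mt2* (-0.0053), without osteoblasts replicate 1 for *Per1* (-0.14), and without osteoblasts replicate 2 for *Zbtb16* (0.075). Leaving out 1 library in turn gave -1.65 to -0.079 for *Fkbp5*, -1.61 to -0.13 for *Errfi1*, -1.13 to -0.060 for *Tsc22d3*, -0.40 to 0.091 for *Sgk1*, -0.35 to 0.32 for *Zbtb16*, -0.090 to 0.33 for *Dusp1*, -0.14 to 0.49 for *Per1* and -0.0053 to 0.26 for *Mt2*. The replicate block gave 46 genes called higher and 3 lower under osteoblasts, 49 in all, and 0 members. Same-numbered libraries had correlations of their deviations from the label means of 0.84, -0.75 and 0.83 across genes, and not every library correlated best with its own number. Those correlations follow the globin split and do not show whether same-numbered libraries share a mouse. Leaving out 1 library gave 0 to 262 genes called higher and 0 to 38 lower, 0 to 300 in all. There were 66 higher and 11 lower without bone replicate 3, 262 and 38 without osteoblasts replicate 1, and 0 without any of the other 4. Without bone replicate 3 only globin-low libraries remain under bone, and without osteoblasts replicate 1 only globin-high ones remain under osteoblasts. The lowest values above for *Fkbp5* (-1.65), *Errfi1* (-1.61) and *Tsc22d3* (-1.13) were also those without bone replicate 3. The cause of these calls and values was not tested. FPKM hold no counts, so no counting interval can be given for a single value, and merged features hide *Mt1* and *Klf9*.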

Other observations

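A few genes of the lists outside the naming rule were picked after their values were seen. *Ptgs2*, which encodes the inducible cyclooxygenase and is repressed by glucocorticoids, measured 8.51, 5.88 and 0.101 FPKM in the bone replicates and 4.24, 0.0601 and 0.0335 FPKM in the osteoblasts replicates. *Pdk4*, a kinase that restrains glucose oxidation and is induced by glucocorticoids, measured 12.4, 6.91 and 1.88 FPKM in the bone replicates and 13.9, 2.25 and 2.01 FPKM in the osteoblasts replicates. Both were lowest in the 3 globin-high libraries, as were 16.9% of all genes tested, while 38.4% were highest there. Of the 13 induced genes tested, 2 were lowest and 5 highest there, and of the 6 repressed genes tested, 4 were lowest and 2 highest. *Il1b*, another repressed gene, was listed at 0 in the 3 globin-low libraries and measured 6.02 to 11.1 FPKM in the globin-high ones.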
